A study of Mus musculus with 18 samples.

Results

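H3K4me3, trimethylated lysine 4 of histone H3, was compared at meiotic recombination hotspots between spermatocytes of Ewsr1 conditional knockout mice and a reference that the authors' table names B6, the label also used for C57BL/6J mice in the series. The members are the 5567 distinct intervals of the authors' deposited table of sites shared by both genotypes, out of 5787 listed lines, with lines that repeat an interval averaged. A separate table of 9132 DMC1 sites shared by B6, Ewsr1 CKO and Prdm9+/- mice, which also carries H3K4me3 values for the knockout and for a wild type, was read the same way. The series has 18 libraries, 2 of them for H3K4me3 in the knockout, and how these 2 enter the single knockout column is not given in the sources used here.

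The study profiled 2 histone marks and DMC1 by chromatin immunoprecipitation and sequencing in spermatocytes at 14 days post-partum. Knockout animals carry a conditional Ewsr1 allele and Stra8-iCre, a transgene that expresses Cre recombinase from the promoter of Stra8, a gene switched on in germ cells around entry into meiosis, so that deletion is meant to occur in the germ line. The series holds 2 DMC1 libraries each for B6 and Ewsr1 CKO, given as 1 value per genotype, and H3K36me3 values were used for Ewsr1 CKO alone. The B6 H3K4me3 column and the wild-type H3K4me3 column have no library in the series. The design text says that H3K4me3 data generated earlier in the same cell type were used for comparison, and the strain, age and preparation of that reference are not given in the sources used here. Each genotype has 1 deposited H3K4me3 value per site, so no spread between replicates can be given and every difference is a description without a p-value. The files hold signal over listed sites only. Loss of Ewsr1 and the identity of the cells could therefore not be checked from them.

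PRDM9 is a zinc finger protein that binds DNA motifs in early meiotic prophase and places H3K4me3 and H3K36me3 on the neighbouring nucleosomes. These marked sites are where most programmed DNA double strand breaks form in mice, and DMC1 is the recombinase that coats the single-stranded DNA at the breaks. EWSR1 is an RNA- and DNA-binding protein of the FET family, named after its gene's rearrangement in Ewing sarcoma.

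For sites that contain a gene start, reference promoter sequence can be shown. Of 32851 RefSeq promoter windows (GRCm38.p6, each 300 bases: 250 before and 50 after a gene start), 56 lie wholly inside one of 53 H3K4me3 sites. The letters GNTGCTNCT, a short form of the motif associated with the PRDM9 of B6 mice, were searched on both strands. They occur in 11 of these 56 windows (19.6%) and in 7.24% of all windows. The 3 matching windows at the sites strongest in H3K4me3 are shown so that the marked DNA can be read, with the match in capitals. They lie at chr1:154103613-154103912 (plus strand), chr11:74060647-74060946 (plus strand) and chr5:98568508-98568807 (minus strand), each read along its gene's strand. A match in letters is a description and not a binding site.
Gm46165: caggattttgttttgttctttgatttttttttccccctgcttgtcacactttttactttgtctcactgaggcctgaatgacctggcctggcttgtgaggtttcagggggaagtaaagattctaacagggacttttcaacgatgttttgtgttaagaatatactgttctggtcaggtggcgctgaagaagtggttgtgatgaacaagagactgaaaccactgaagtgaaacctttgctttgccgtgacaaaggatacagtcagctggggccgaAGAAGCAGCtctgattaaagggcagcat
Zfp616: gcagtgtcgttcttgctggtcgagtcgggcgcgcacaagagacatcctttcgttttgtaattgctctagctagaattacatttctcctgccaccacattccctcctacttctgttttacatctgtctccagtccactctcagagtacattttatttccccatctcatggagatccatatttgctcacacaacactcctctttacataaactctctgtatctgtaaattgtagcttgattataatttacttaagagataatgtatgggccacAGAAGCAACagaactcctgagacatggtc
1700010H22Rik: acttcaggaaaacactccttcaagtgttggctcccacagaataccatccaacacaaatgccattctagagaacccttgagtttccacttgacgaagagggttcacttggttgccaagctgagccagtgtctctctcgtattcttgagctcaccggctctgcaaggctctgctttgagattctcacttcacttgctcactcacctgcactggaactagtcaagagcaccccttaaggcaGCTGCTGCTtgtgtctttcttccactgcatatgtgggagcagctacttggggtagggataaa

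H3K4me3 at the site holding the Gm46165 window was 12.1 RPM (read count scaled to library size) in B6 against 4.39 RPM in Ewsr1 CKO, or 36.2% of B6. The site with the window of Zfp616, a zinc finger gene, had 3.53 RPM in B6 against 1.22 RPM in Ewsr1 CKO (34.5%). The site with the 1700010H22Rik window had 3.44 RPM in B6 against 1.16 RPM in Ewsr1 CKO (33.8%). The sites of the other 8 matching windows were weaker, at 0.306 to 1.46 RPM in B6, and kept 61.8% (Gjb1) to 158% (Txndc2), so the 3 shown do not stand for all matching windows. Across the 53 sites with a promoter window, the median log2 ratio was -0.94, from -1.78 to 0.54. Of these, 49 were lower in Ewsr1 CKO, against 97.4% of all 5567 sites. By 1.5-fold or more 38 were lower, against 83.5% of all sites.

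H3K4me3 was lower in Ewsr1 CKO at nearly every listed site. The B6 values ran from 0.152 to 26.3 RPM with a median of 2.48 RPM, and the Ewsr1 CKO values from 0.0564 to 9.90 RPM with a median of 0.999 RPM. The median site kept 41.8% of its B6 value. On the log2(RPM + 0.1) scale, used for all ratios here, the median of Ewsr1 CKO over B6 was -1.17 (quartiles -1.54 and -0.76; 95% order-statistic interval -1.19 to -1.16, which covers variation over sites and not over animals). The value was lower at 5424 of 5567 sites and higher at 143. A ratio of 1.5-fold or more, the threshold for a call, was reached downwards at 4647 sites (83.5% of all tested) and upwards at 10 sites (0.18%). These percentages are the background against which each class of sites is read.

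These ratios rest on RPM scaling in libraries made separately from the reference. When the Ewsr1 CKO column was multiplied by 2.55 so that both columns had equal sums, 542 sites (9.74%) were lower and 1144 (20.5%) higher by 1.5-fold, and the median log2 ratio was 0.088. Less H3K4me3 at hotspots, a different preparation, and a different share of cells at the stage that carries the mark cannot be told apart with these columns. A common factor for the library changes differences between classes of sites little. A library difference that acts unequally on weak and strong sites could change them, and this was not tested. The table lists sites shared by both genotypes, so sites called in B6 alone are not among them.

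**Figure D1:**
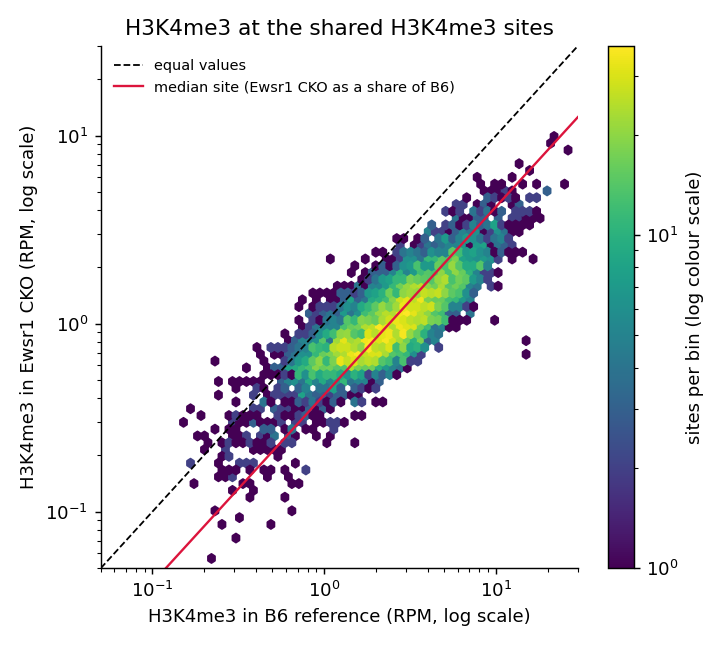
H3K4me3 in Ewsr1 CKO (vertical, RPM, log scale) against the B6 reference (horizontal, RPM, log scale) at 5567 sites, coloured by the number of sites per bin. Most sites lie below the dashed line of equal values, and the red line is drawn at the median share, 41.8% of B6.

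At the DMC1 sites the wild-type H3K4me3 median was 1.93 RPM and the Ewsr1 CKO median was 0.861 RPM. The median log2 ratio was -1.13 (quartiles -1.48 and -0.75), and the median site kept 42.8% of the wild-type value. It was lower at 8941 of 9132 sites, with 83.3% lower and 0.11% higher by 1.5-fold. Scaled to equal totals, 11.7% were lower and 16.8% higher by 1.5-fold, and scaled to equal medians 16.2% and 12.8%. This second set gave almost the same shift, but it is not independent. For 4990 sites in both tables the log2 ratios had a Spearman rho of 0.967, and the wild-type value was a median of 1.03 times the B6 value of the other table. Whether both tables used the same reference libraries is not given in the sources used here.

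**Figure D2:**
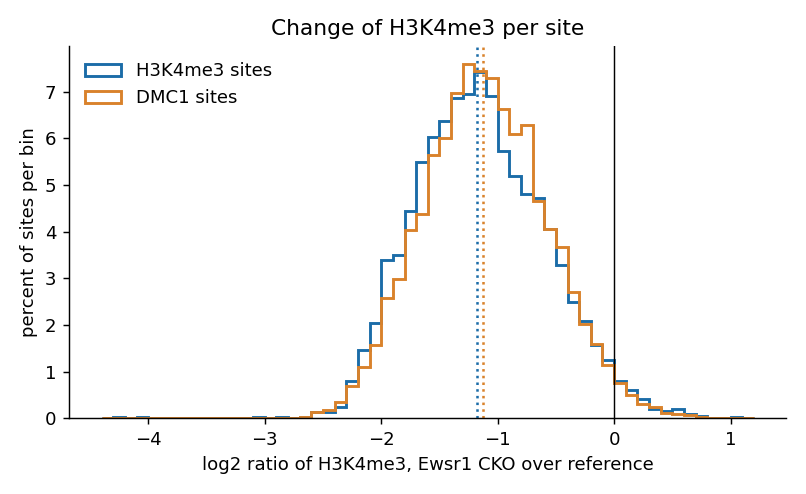
Distribution of the log2 ratio of H3K4me3, Ewsr1 CKO over the reference (horizontal), as percent of sites per bin (vertical) for 5567 H3K4me3 sites and 9132 DMC1 sites; dotted lines mark the medians of -1.17 and -1.13. Both curves lie almost wholly to the left of 0.

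Over the listed H3K4me3 sites, the spread between sites was narrower in Ewsr1 CKO. In B6 the site at the 90th percentile had 6.08 times the level of the site at the 10th percentile, and in Ewsr1 CKO 3.63 times. The top decile of sites, ranked in each column on its own, held 27.0% of all B6 signal and 24.0% of all Ewsr1 CKO signal. The order of sites was largely kept, with a rho of 0.805 between the columns over 5567 sites. At DMC1 sites the narrowing was smaller, from 6.13 to 5.22 times, and the top decile held 29.1% and 27.1% of the signal. The H3K4me3 sites had to be shared by both genotypes, so the weakest knockout sites may be missing from that spread. How much of the narrowing comes from this listing was not tested.

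Sites with the strongest break signal in B6 had the lowest share of H3K4me3 left. B6 DMC1 comes from libraries of the series that enter neither H3K4me3 column, so it ranks sites without sharing a value with the ratio. B6 DMC1 still followed B6 H3K4me3, with a rho of 0.600 over 4992 sites. The ratio had a rho of -0.510 with B6 DMC1 there, and of -0.689 with B6 H3K4me3 over 5567 sites. The DMC1 gradient within the same B6 H3K4me3 level was not tested. In the weakest quintile of the 4992 sites with a DMC1 value the median H3K4me3 was 1.51 RPM in B6 against 0.788 RPM in Ewsr1 CKO, and the median site kept 53.2%. In the middle quintile the medians were 2.71 and 1.06 RPM, with 41.1% kept. In the strongest quintile they were 4.76 and 1.43 RPM, with 30.9% kept.

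The share kept fell at each step from the weakest to the strongest quintile. The median log2 ratios were -0.83, -1.04, -1.20, -1.38 and -1.63, and the sites lower by 1.5-fold went from 68.9% to 98.4%. As levels, the strongest quintile had 3.16 times the H3K4me3 of the weakest in B6 and 1.82 times in Ewsr1 CKO. Quintiles of the DMC1 table gave -0.85, -0.98, -1.06, -1.23 and -1.53.

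**Figure D3:**
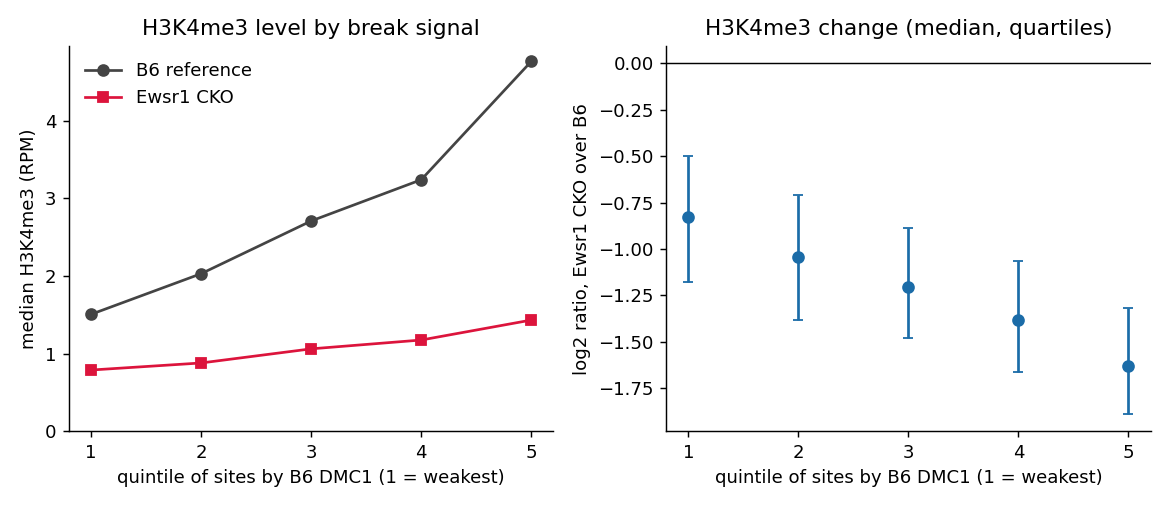
H3K4me3 in quintiles of sites ordered by B6 DMC1, from weakest to strongest (998 or 999 sites each). Left, median level in RPM in B6 and Ewsr1 CKO; right, median log2 ratio with bars for the quartiles. B6 rises from 1.51 to 4.76 RPM and Ewsr1 CKO from 0.788 to 1.43 RPM, while the median ratio falls from -0.83 to -1.63.

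The size of the gradient depended on which H3K4me3 column ranked the sites. Ranked by the mean of both log2 columns, the median log2 ratio went from -0.65 in the weakest quintile to -1.50 in the strongest, a difference of -0.86 that was -0.32 when sites in the lowest quartile of mean level were left out. Ranked by the B6 column, it went from -0.53 to -1.64, and ranked by the Ewsr1 CKO column only from -0.98 to -1.26. At DMC1 sites the ranking by the wild-type column went from -0.74 to -1.52, while the ranking by Ewsr1 CKO H3K4me3 showed no gradient, with -1.20 in the weakest quintile, -1.06 in the next and -1.12 in the strongest. Each of these rankings shares a column with the ratio. Wider intervals also had lower ratios, from -0.67 in the narrowest quintile to -1.56 in the widest. B6 levels rose with width as well, from a median of 0.999 to 5.61 RPM, and their part was not tested. Ewsr1 CKO H3K36me3, the other mark placed by PRDM9, ranked sites from -0.76 in its lowest quintile to -1.39 in its highest. Between these quintiles the median B6 H3K4me3 rose from 1.14 to 4.88 RPM, and its part was not tested here either.

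H3K4me3 followed DMC1 across sites less closely in Ewsr1 CKO than in the reference. Over 9132 DMC1 sites, the rho with B6 DMC1 was 0.616 for wild-type H3K4me3 and 0.443 for Ewsr1 CKO H3K4me3. With DMC1 from the Ewsr1 CKO libraries it was 0.610 and 0.395. The wild-type H3K4me3 column ranked knockout DMC1 better than the knockout's own H3K4me3 column did. The depth behind these columns is unknown.

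At the listed sites, the change in H3K4me3 had almost no relation to the change in DMC1 RPM. Over 9132 sites the rho between the log2 ratios was -0.049, and at the 4992 H3K4me3 sites with a DMC1 value it was 0.0060. In the quintile of sites with the lowest H3K4me3 ratios (median -1.79) the median DMC1 was 116 RPM in B6 against 139 RPM in Ewsr1 CKO. In the quintile with the highest ratios (median -0.41) it was 29.2 RPM in B6 against 32.9 RPM in Ewsr1 CKO. The quintiles differed about 4-fold in DMC1 level, while the median DMC1 log2 ratio was 0.17 in the first and 0.13 in the second. DMC1 RPM is scaled to library size, so these ratios do not show a change in total DMC1. Hotspots without DMC1 in the knockout are not among the shared sites. Each ratio rests on columns of unknown depth, and noise in them would also lower a rho.

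**Figure D4:**
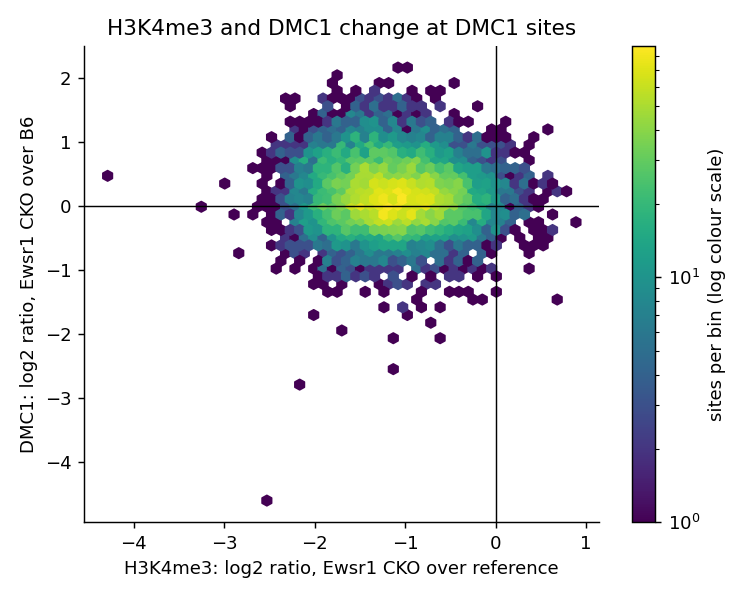
Log2 ratio of DMC1, Ewsr1 CKO over B6 (vertical), against log2 ratio of H3K4me3, Ewsr1 CKO over the wild-type reference (horizontal), at 9132 DMC1 sites, coloured by sites per bin. The cloud lies left of 0 on the horizontal axis and around 0 on the vertical axis, with no slope (rho -0.049).

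The X chromosome had lower ratios than any autosome in either table. At its 99 H3K4me3 sites the median was 3.32 RPM in B6 against 0.956 RPM in Ewsr1 CKO, and the median site kept 30.1%. Of these sites 97 were lower by 1.5-fold and none was higher than B6. The median log2 ratio was -1.62 on X and -1.17 on autosomes, a difference of -0.46. Among the 19 autosomes the medians ran from -0.98 on chromosome 17 to -1.31 on chromosome 14. At DMC1 sites the median was -1.42 on X (388 sites) and -1.11 on autosomes, although X sites there had less wild-type H3K4me3 (1.56 against 1.95 RPM).

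The X chromosome differs from autosomes in males by its single copy and by the lasting DMC1 signal of its unsynapsed breaks. Within the same quintile of wild-type H3K4me3 the X difference at DMC1 sites was -0.41, and within the same quintile of B6 DMC1 it was -0.048. At H3K4me3 sites it was -0.24 within the same quintile of B6 level. Within the same quintile of the mean of both log2 columns it was -0.36 there. At DMC1 sites the X difference was small among sites of like DMC1 signal, but not among those of like H3K4me3 level. Because DMC1 lasts at X breaks, X and autosomal sites of like DMC1 signal need not be alike in H3K4me3. That match therefore does not show why X was lower, and it was not run at H3K4me3 sites.

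**Figure D5:**
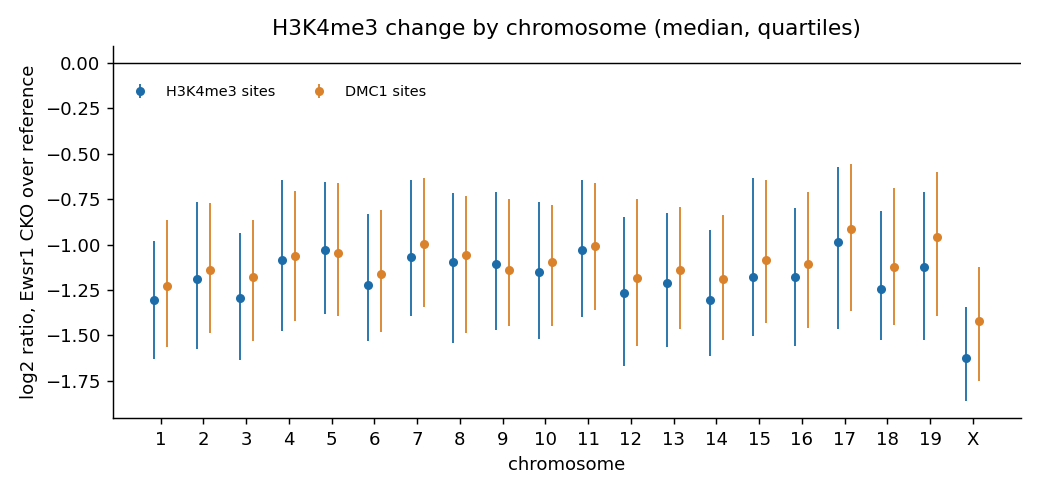
Median log2 ratio of H3K4me3, Ewsr1 CKO over the reference (vertical), by chromosome (horizontal), with bars for the quartiles, for both sets of sites. The X medians (-1.62 and -1.42) are the lowest of each set, and chromosome 17 has the highest (-0.98 and -0.92).

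Sites far from protein-coding genes' ends kept a smaller share than sites near them. Distance was taken from each site to the nearest end, start or finish, of a RefSeq protein-coding gene, so a site deep inside a long gene also counts as far. The 285 H3K4me3 sites within 1 kb had medians of 2.24 RPM in B6 against 1.096 RPM in Ewsr1 CKO, and the median site kept 50.4%. The 1329 sites beyond 100 kb had 2.79 and 0.927 RPM, with 34.6% kept. From near to far the median log2 ratios were -0.94 within 1 kb, -0.96 from 1 to 5 kb, -1.08 from 5 to 20 kb, -1.17 from 20 to 100 kb and -1.43 beyond.

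At DMC1 sites the median ratio also fell with distance, from -0.89 within 1 kb and -0.94 from 1 to 5 kb to -1.30 beyond 100 kb. There the wild-type level went the other way, from 2.24 RPM within 1 kb to 1.80 RPM beyond 100 kb, so the far DMC1 sites were not the stronger ones. At H3K4me3 sites, where the far sites were the stronger ones, the difference of sites beyond 100 kb from the rest was -0.33, and -0.25 within the same quintile of B6 level. It was -0.26 at DMC1 sites and -0.30 within the same quintile of wild-type level.

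Sites at the distal end of an autosome, up to 10 Mb before its last listed hotspot, also kept more H3K4me3. The 460 sites there had medians of 1.93 RPM in B6 against 0.987 RPM in Ewsr1 CKO and a median log2 ratio of -0.88, against -1.19 at the other 5008. The difference was 0.31, and 0.16 within the same quintile of B6 level. With a limit of 5 Mb it was 0.17, and with 20 Mb it was 0.25. Ratios of neighbouring autosomal sites were weakly correlated: rho was 0.342 for pairs under 100 kb apart (1470 pairs) and 0.209 for pairs over 1 Mb apart (562 pairs), against 0.159 and 0.143 for their B6 levels.

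H3K4me3 sites that overlap no entry of the DMC1 table kept more of the mark. That table lists sites shared by 3 genotypes, so absence from it does not mean that B6 has no DMC1 there. The 575 such sites had medians of 1.18 RPM in B6 against 0.712 RPM in Ewsr1 CKO, a median log2 ratio of -0.64, and 55.7% were lower by 1.5-fold. The 4992 sites with a DMC1 site had 2.67 and 1.04 RPM, a ratio of -1.22, and 86.7% were lower. Those without were also weaker: within the same quintile of B6 level the difference shrank from -0.58 to -0.089. It was -0.28 within the same quintile of the mean of both log2 columns, and -0.21 within the same quintile of width.

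Single sites ranged widely (coordinates in mm10). Among sites at or above the median of the mean level, the lowest ratios were at a pair of sites in the T cell receptor alpha locus (Tcra) on chromosome 14. The site at chr14:53019239-53021955, over the variable segment Trav7d-6, had 14.6 RPM in B6 against 0.661 RPM in Ewsr1 CKO, 4.53% of B6. The site at chr14:53322724-53326029, over Trav7n-6, had 15.2 and 0.832 RPM. Neither overlapped a listed DMC1 site, and Ewsr1 CKO H3K36me3 was 0 at both.

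A site over the related segment Trav7-6 at chr14:53714447-53718355, picked after its values were seen, had 14.6 RPM in B6 against 3.46 RPM in Ewsr1 CKO. These segments are copies of each other, reads may map to several of them, and how such reads were counted is not given in the sources used here. Values at the 3 sites are therefore uncertain. Ewsr1 CKO H3K36me3 was at 0 at only 5 of 5567 sites.

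The next lowest sites lay outside this locus. At chr7:88264464-88269617, 8.41 kb from Ctsc, which encodes the protease cathepsin C, H3K4me3 was 9.74 RPM in B6 against 1.08 RPM in Ewsr1 CKO. DMC1 there was 254 RPM in B6 against 266 RPM in Ewsr1 CKO. In Erbb4, a receptor tyrosine kinase gene (chr1:68487539-68490608), H3K4me3 was 10.8 and 1.61 RPM and DMC1 1213 and 1086 RPM. In Cntnap5b (chr1:99859717-99863233) H3K4me3 was 17.1 and 2.25 RPM, with DMC1 of only 13.9 and 26.3 RPM. At the Ctsc and Erbb4 sites H3K4me3 RPM was lower by more than 6-fold, while DMC1 RPM, which is scaled to library size, moved by less than 1.2-fold.

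The strongest site of all, in Enpp6 (chr8:46997869-47009815, 11946 bp wide), had 26.3 RPM in B6 against 8.76 RPM in Ewsr1 CKO. It is also the one with little DMC1 among the 5 strongest, at 7.84 RPM in B6. The site in Nrg1, which encodes the growth factor neuregulin 1 (chr8:32248048-32252443), had 24.97 and 5.69 RPM, with DMC1 of 800 RPM in B6 against 534 RPM in Ewsr1 CKO. Sites in Plekha5 (chr6:140588852-140593128), Capzb (chr4:139204945-139210369) and Trip12 (chr1:84803394-84808535) had 21.0, 20.8 and 20.8 RPM in B6 and 8.74, 9.90 and 5.12 RPM in Ewsr1 CKO. The share kept at these 5 sites ran from 22.8% at Nrg1 to 47.5% at Capzb, the gene of an actin capping protein subunit.

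Among sites at or above the median of the mean level, the 5 highest log2 ratios ran from 0.07 to 0.35, and from 1.39 to 1.66 when both columns had equal totals. In Dst, the gene of the cytoskeletal linker dystonin (chr1:34143224-34145377), the level was 1.55 RPM in B6 against 1.997 RPM in Ewsr1 CKO. Sites in Cacna1h, a calcium channel gene (chr17:25381856-25383768), and in Mdga1 (chr17:29871891-29873559) had log2 ratios of 0.29 and 0.27. None of these 3 sites overlapped a listed DMC1 site. The site in the kinase gene Akt1 (chr12:112654085-112656086) had 2.28 RPM in B6 against 2.47 RPM in Ewsr1 CKO, and the site near Padi2 (chr4:140901651-140903610) had 2.69 and 2.83 RPM. Both overlapped DMC1 sites, with 38.8 and 57.9 RPM of DMC1 at Akt1.

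At DMC1 sites the extremes were elsewhere. The lowest ratios were at a site in Gm11847 (chr4:12235932-12237700), with 3.41 RPM in wild type and 0.0794 RPM in Ewsr1 CKO, and at a site in the splicing factor gene Hnrnpa3 (chr2:75667321-75669142), with 4.42 and 0.359 RPM. A site 22.2 kb from Cyp2a22, a cytochrome P450 gene (chr7:26961615-26964129), had 2.62 and 0.284 RPM. The highest ratios were in Dap3, a mitochondrial ribosome gene (chr3:88921858-88924254), with 0.993 and 1.92 RPM, in Lmod1 (chr1:135356400-135358805), with 1.12 and 1.78 RPM, and in the kinase gene Akt2 (chr7:27604677-27607120), with 1.55 and 2.41 RPM. DMC1 in B6 and in the knockout was 21.9 and 28.7 RPM at the Gm11847 site, 13.8 and 13.7 RPM at Hnrnpa3, and 54.9 and 33.1 RPM at Cyp2a22. At the 3 sites with the highest ratios it was 37.8 and 33.4 RPM (Dap3), 23.9 and 18.7 RPM (Lmod1) and 69.3 and 64.8 RPM (Akt2). DMC1 was thus higher, level or lower among the sites with the lowest H3K4me3 ratios, and lower at the 3 with the highest.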

How the data were processed

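Deposited RPM values (reads scaled to library size, per the file headers) were used for H3K4me3, H3K36me3 and DMC1; 2 value columns were not used. BWA 0.5.10, Trimmomatic 0.32 and mm10 are named in the submitters' processing notes, without roles. How peaks were called, whether and how replicates were merged, and whether input was subtracted are not given in the sources used here. Per the labels' protocols, chromatin for H3K4me3 was cut with MNase. Repeated intervals (157, 377 lines) were averaged. Log2 ratios of Ewsr1 CKO over the reference used a pseudocount of 0.1 RPM, and calls a fold of 1.5. Depth is unknown: the knockout values lie on steps of 0.000128 RPM, which is no single read. Sites overlapping by 1 bp or more were joined. Genes came from RefSeq GRCm38.p6, the same build as mm10; distance to the ends of its 21900 protein-coding genes was chosen after seeing the data.

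Python 3.11.15, pandas 2.3.3, numpy 2.4.6 and scipy 1.17.1 were used, and the functions were tested on simulated data. No test gave a p-value. Sites named were those with the 5 highest and 5 lowest ratios among sites whose mean RPM of both columns reached the median site's mean RPM, 3 of each at DMC1 sites, and the 5 with the highest mean. Members, classes and rules were chosen with earlier results of these data known. Alternatives were other scalings, pseudocounts, folds and site filters.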

Additional observations from a re-analysis of the deposited data

How the results depend on the processing

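No paired analysis was possible because the deposited columns give 1 value per genotype, so leaving out a replicate was not run either. GC classes were not run for want of a genome sequence. The median log2 ratio at H3K4me3 sites (-1.17) was 0.088 under equal totals, 0.052 under equal medians, -0.76 for a pseudocount of 1, -1.26 for none, -1.33 without low sites, -1.35 from sums and -1.22 at sites with DMC1. The percent lower by 1.5-fold (83.5) was 9.74 with equal totals and 11.2 with equal medians. The percent higher (0.18) was 20.5 and 18.7 under these, 0.018 with a pseudocount of 1, 0.31 with none, 0.048 without low sites and 0.036 at a fold of 2. The strength gradient (-0.86) was -0.32 without low sites, -1.11 ranked by B6 and -0.28 ranked by Ewsr1 CKO, the last chosen after seeing the data. The X difference (-0.46) was -0.36 at the same strength and -0.24 within the same quintile of B6 level. The DMC1-site difference (-0.58) was -0.48 with a pseudocount of 1, -0.30 without low sites, -0.28 at the same strength and -0.089 at the same B6 level. The distal difference (0.31) was 0.17 for 5 Mb, 0.22 at the same strength and 0.16 at the same B6 level. Matching on B6 level, width or B6 DMC1, and on strength for the DMC1-site and distal differences, was chosen after seeing the data. At DMC1 sites the median (-1.13) was 0.037 under equal totals, -0.060 under equal medians, -0.65 for a pseudocount of 1, -1.23 for none, -1.21 without low sites, -1.11 on autosomes and -1.26 from sums. The rho of H3K4me3 and DMC1 ratios was 0.037 with a pseudocount of 1, -0.073 with none and -0.078 on autosomes. With equal totals and equal medians, the Capzb site (0.27 and 0.24) and the Plekha5 site (0.085 and 0.047) turned positive, and the other 13 of the 15 H3K4me3 sites named by rule kept their sign; the other sites named in the text were not run.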
